A study of Mus musculus with 15 samples.

Results

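Fatty acid synthesis and desaturation genes were followed as a group of 10 named genes, Fasn, Acaca, Acly, Acss2, Scd1, Scd2, Fads1, Fads2, Elovl6 and Srebf1, among the 55291 genes of each comparison table. The genes were selected on name, with their fold changes in the DON, Gln-free and DRP-104 comparisons already in view. RNA-seq had been done on HY19636, a primary mouse pancreatic ductal adenocarcinoma (PDAC) line with p53 L/+ and Ptf1a Cre+ alleles among others, which the labels give as p53 mut, and every sample traced to 1 line. Cultures in DMEM were left as control cells, given the glutamine (Gln) antagonist DON at 25 µM for 24 h, or grown without Gln for 24 h. The same line was also grown orthotopically in the pancreas of female B6J mice that were 8 to 10 weeks old, and the mice were given vehicle or the DON prodrug DRP-104 (3 mg/kg) in 2 cycles of 5 days on and 2 days off, starting 7 days after surgery. Each of the 5 groups held 3 libraries. Nothing in the labels says that the libraries came from separate cultures, so a p-value measures the spread between these libraries only.

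Cells build saturated fatty acids from acetyl-CoA. ACLY and ACSS2 supply cytosolic acetyl-CoA from citrate and from acetate, ACACA carboxylates it to malonyl-CoA, and FASN joins these units into palmitate. ELOVL6 lengthens palmitate, SCD1 and SCD2 place a double bond in saturated chains to give monounsaturated ones, and FADS1 and FADS2 desaturate the polyunsaturated series. SREBP-1, the product of Srebf1, is the transcription factor best known for driving these genes, and pancreatic cancer is known for high rates of lipid synthesis.

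The libraries held 25.2 to 48.2 M reads in culture and 16.3 to 20.7 M in tumors, so all 10 genes were far above the filter of a mean of 10 normalized counts. Depth differed within groups, and the deepest control library held 48.2 M reads beside 27.1 and 27.2 M. The 11 PDAC epithelial markers (keratins, Epcam and others) had reads in every group. In the cultures 7 to 9 of 11 fibroblast markers were at 0 reads, Dcn and Lum among them, while Col1a1 and Pdgfra had reads. For T cells 7 of 10 markers were at 0 in each culture group, Cd3e among them, while Trac and Lck had reads, with Trac at a mean of 63.7 normalized counts in the control cells. The summed PDAC epithelial markers were themselves lower in treated cultures, at 135260 to 143980 normalized counts with DON and 170050 to 185410 without Gln against 421320 to 544280 in the control cells. Their part in the results below was not tested.

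On the mouse genome (GRCm38 by the match of gene starts and ends), 4 of the genes lie on chromosome 11: Fasn at chr11:120805940-120824178, Acaca at chr11:84129672-84401651, Acly at chr11:100476353-100528000 and Srebf1 at chr11:60199089-60222581. Another 4 lie on chromosome 19 as pairs of nearby genes: Scd1 at chr19:44394451-44407709 and Scd2 at chr19:44293676-44306864, then Fads1 at chr19:10182888-10196870 and Fads2 at chr19:10064164-10101503. Acss2 lies at chr2:155517948-155585724 and Elovl6 at chr3:129532386-129638495. Exons of Acss2 overlap annotated exons of Ggt7, Gss and an antisense transcript, and those of Srebf1 overlap Rai1. Each of these lies on the strand opposite to the gene it overlaps, as does Gm35986, which shares 34 exon bases with Elovl6. On the same strand, Mir6922 shares 66 exon bases with Srebf1 and Mir5114 shares 61 with Scd2. The strand setting of the counting is not given in the sources used here. Scd1 and Scd2 are close paralogs, so reads that match both could be split between them by the counting.

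Because the 10 genes are textbook SREBP targets that were lower together in the cultures, the 250 bases before their RefSeq start sites were searched on both strands for sterol response element letters. A start site was on hand for 7 of the 10 genes (not Scd1, Scd2 or Fads1), with several for Srebf1. The 7 genes had 9 promoters in all, while the shares below are per promoter. The Acaca window, chr11:84195188-84195437, lies inside the span of the gene given above, so bases before that span were not searched. The Fasn window, chr11:120824548-120824797, begins some way beyond the span given above, so the bases between them were not searched. The Srebf1 windows chr11:60220628-60220877 and chr11:60210472-60210721 lie inside the span of that gene. The Acss2 window, chr2:155517793-155518042, runs across the start given above. The strict form TCACNCCAC was found in 0 of 7 genes, against 1.05% of 32851 RefSeq mouse promoters. The looser form TCANNCCAC, which takes in every strict match, was found in Acly alone, against 3.52% of promoters. CACGTG was found in 0 of 7 genes, against 6.02% of promoters. The CCAAT box (CCAAT) was found in Acss2, Fasn and Srebf1, against 33.8% of promoters, and the GC box (GGGCGG) in Acly, Acss2, Fads2 and Srebf1, against 32.7%. The Acly window is shown since it is the 1 with a sterol response element match. It is chr11:100528001-100528250 on GRCm38.p6, read from the minus strand, with the TCANNCCAC match 158 bases before the start site and the GC boxes (either strand) in capitals:
Acly: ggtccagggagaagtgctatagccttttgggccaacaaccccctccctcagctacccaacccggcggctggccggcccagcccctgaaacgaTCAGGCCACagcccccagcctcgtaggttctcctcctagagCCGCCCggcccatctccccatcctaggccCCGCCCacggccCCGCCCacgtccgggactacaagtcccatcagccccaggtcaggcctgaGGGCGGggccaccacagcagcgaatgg
A match of this kind is a description of letters only, and windows without one say nothing about the factor.

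In control cells Scd2 was the most abundant of the 10 transcripts, and Acss2 the least. On a scale of reads per kb of transcript per M reads, control levels ran from 631 ± 25.3 for Scd2 through 222 ± 15.8 for Fads2, 144 ± 4.69 for Scd1 and 129 ± 3.65 for Acly (SD, n = 3). Fads1 (73.4 ± 6.52), Srebf1 (68.8 ± 3.83) and Fasn (60.7 ± 5.04) followed, and the ranges of neighbours in this trio overlapped. Elovl6 (17.2 ± 4.70), Acaca (11.3 ± 0.281) and Acss2 (6.60 ± 0.159) were lowest. The transcript length used for Fads2 was 1508 bases, short of the 3295 bases that its annotated exons cover, which raises its level on this scale. Acss2 (3609 against 10163 bases) and Acaca (9513 against 17074 bases) were among other genes with such a shortfall. It shifts per-length ratios by the same factor in every library. Scd2 kept the highest level in every one of the 5 groups, at 168 ± 27.2 with DON, 85.6 ± 18.2 without Gln, 167 ± 27.8 in vehicle tumors and 144 ± 24.5 in DRP-104 tumors.

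**Figure D1:**
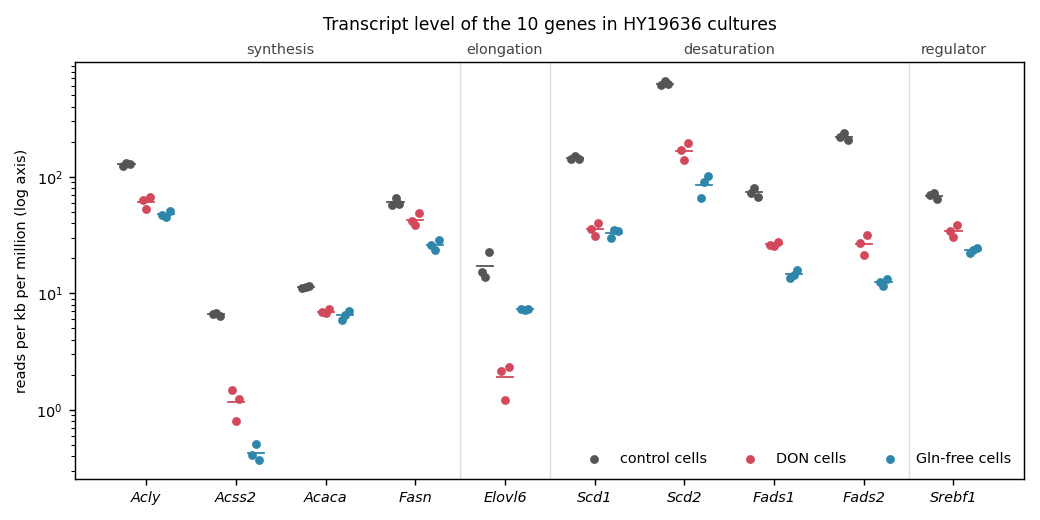
Level of each gene in the 9 culture libraries, in reads per kb of transcript per M reads on a log axis. Points are single libraries and bars the group means (n = 3), and for each gene the treated libraries sit below all 3 control libraries.

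The first pair of comparisons asked how blocking Gln use with DON, or removing Gln, altered the transcripts of this pathway. All 10 genes were lower than in control cells with DON, and all 10 were lower without Gln. The median log2 difference of the 10 genes was -1.84 with DON and -1.95 without Gln, while that of all genes tested was 0.02 and 0.01. All 10 passed the limma threshold (adjusted p under 0.05) as lower in both comparisons, where the background was 34.7% of 13556 genes called lower with DON and 34.9% of 13390 without Gln. Treated and control ranges stood apart for 10 of 10 genes in either comparison, where 71.9% and 73.6% of all genes tested did so. These 2 comparisons were among those that chose the genes, so the counts are a description and no p-value is given for them. They also share the same 3 control libraries. Values below are counts normalized by the authors within each comparison table, so the control values differ a little between the tables.

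Among the genes of acetyl-CoA supply, the acetate enzyme differed far more than the citrate enzyme. Acly, which cleaves citrate, had 8356, 7032.7 and 8831.5 normalized counts with DON and 18835, 19858 and 17976 in the control cells. In Gln-free cells Acly had 6101.5, 5851 and 6532.2 against 17750, 18757 and 17336. The treated cultures were all well below the controls, with log2 differences of -1.23 (SE 0.0994) with DON and -1.54 (SE 0.0803) without Gln, or 42.7% and 34.3% of control. Acss2, which activates acetate, had 161.2, 87.72 and 134.3 normalized counts with DON against 813.6, 829.2 and 726.8. The Gln-free cultures gave 43.87, 53.69 and 39.04 against 766.8, 783.3 and 701.0. That left Acss2 at 16.2% of control with DON (log2 difference -2.66, SE 0.195) and at 6.07% without Gln (-4.02, SE 0.169). The per-length ratio of Acly to Acss2 was 18.9 to 20.2 in the control libraries, 42.3 to 65.4 with DON and 88.9 to 136 without Gln, with no overlap among the 3 groups.

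The 2 enzymes of chain building itself had the smallest differences with DON. Acaca, which makes malonyl-CoA, had 1979.2, 1921.6 and 2071.9 normalized counts with DON against 3610.5, 3637.9 and 3471 in the control cells. Acaca in Gln-free cells was at 1658.5, 1808.9 and 1934.8 against 3402.6, 3436.3 and 3347.5. The groups stood apart by about the same amount under each condition, with log2 differences of -0.84 (SE 0.0858) and -0.92 (SE 0.0867). Fasn, the palmitate synthase, had 12003, 11134 and 13902 normalized counts with DON against 18618, 21665 and 17623. In Gln-free medium the values were 7367.3, 6649.1 and 7921.5 against 17546, 20464 and 16996. Fasn thus stood at 64.0% of control with DON (-0.65, SE 0.108), the smallest difference of the 10, and at 39.9% without Gln (-1.32, SE 0.0965).

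Elovl6, the elongase that lengthens palmitate, was the 1 gene with a much larger difference under DON than without Gln. It had 388.0, 217.9 and 412.2 normalized counts with DON against 3068.4, 2798.7 and 4196.5 in the control cells. In Gln-free cells Elovl6 had 1294, 1253.4 and 1255.2 against 2891.8, 2643.6 and 4047.2. The deepest control library was the highest of the control libraries for this gene. The log2 difference was -3.33 (SE 0.207) with DON, the largest of the 10 genes there, and -1.31 (SE 0.133) without Gln, or 10.1% and 39.7% of control.

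The desaturases were all lower, with medians of -2.12 with DON and -2.72 without Gln on the log2 scale, against -1.04 and -1.43 for the 4 synthesis genes. Scd1 had 5204.6, 4550.6 and 5795.1 normalized counts with DON against 23316, 24624 and 21445 in the control cells. The Gln-free cultures gave 4221.5, 4947.6 and 4796.5 against 21974, 23259 and 20682. It therefore stood near the same share of control in each, at 22.4% (-2.16, SE 0.102) and 21.2% (-2.24, SE 0.0879).

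Scd2, the more abundant of the paralogs, had 27987, 22765 and 31318 normalized counts with DON against 113480, 122230 and 106200 in the control cells. Scd2 in Gln-free cells was at 10541, 14357 and 16002 against 106950, 115460 and 102420. These gave 24% of control with DON (-2.07, SE 0.123) and 12.6% without Gln (-3.01, SE 0.132). Scd1 made up 18.5 to 18.8% of the summed Scd1 and Scd2 level per length in the control libraries. The share was 17.3 to 18.4% with DON and 25.3 to 31.1% without Gln, so the Gln-free cultures lay above the control range and the DON cultures just below it. Since the pair are close paralogs, this share rests on how the counting placed shared reads.

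Fads1, the delta-5 desaturase, had 2718.1, 2625.3 and 2858.5 normalized counts with DON against 8504.9, 9455.1 and 7305.1 in the control cells. In Gln-free medium the values were 1376.5, 1463 and 1582.5 against 8015.2, 8931 and 7045.2. Its log2 difference was -1.62 (SE 0.101) with DON and -2.43 (SE 0.0999) without Gln. Fads2, the delta-6 desaturase that acts at the first step, had 1229.5, 959.4 and 1415.4 normalized counts with DON against 11387, 12174 and 9701.8. In Gln-free cells Fads2 had 559.8, 508.0 and 580.6 against 10732, 11499 and 9356.7. Fads2 stood at 10.8% of control with DON (-3.22, SE 0.131) and at 5.22% without Gln (-4.25, SE 0.0984), the largest difference of the 10 in the Gln-free cultures. The per-length ratio of Fads2 to Fads1 was 2.95 to 3.07 in the control libraries, 0.838 to 1.13 with DON and 0.796 to 0.932 without Gln. Both treated groups lay below the controls and overlapped each other.

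Srebf1, the regulator, had 4478.8, 3928.2 and 4950.5 normalized counts with DON against 10214, 10542 and 8686 in the control cells. The Gln-free cultures gave 2834.5, 2962.2 and 3063.9 against 9625.9, 9957.3 and 8377. The log2 difference was -1.14 (SE 0.106) with DON and -1.65 (SE 0.0876) without Gln, or 45.4% and 31.7% of control. These are transcript levels and carry no measure of SREBP-1 processing.

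**Figure D2:**
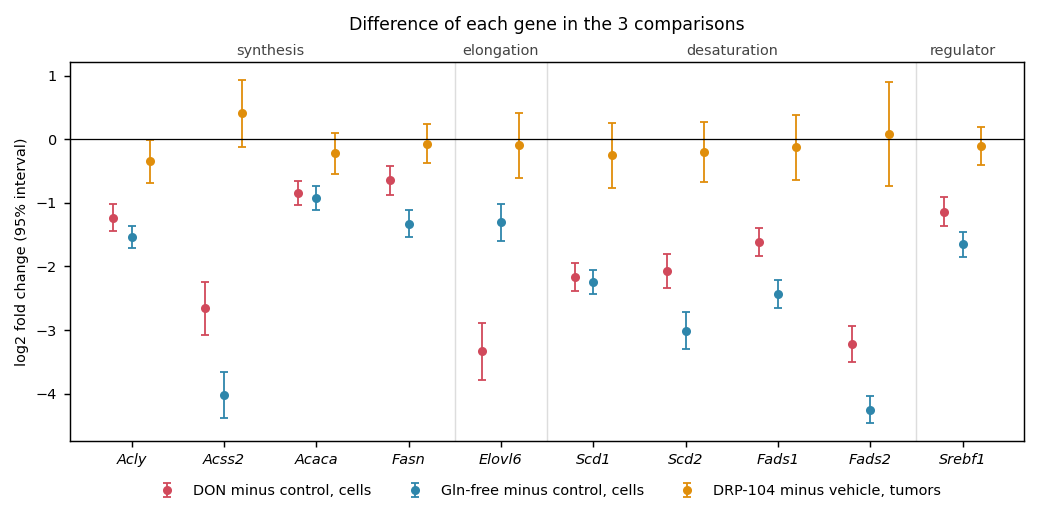
Log2 difference and its 95% interval for each gene, ordered by step, in DON-treated and Gln-free cells against control cells and in DRP-104 against vehicle tumors. The culture differences run from -0.65 to -4.25 and the tumor differences from -0.35 to 0.40.

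DON-treated and Gln-free cells were next compared with each other, to see where the drug and the missing nutrient differed. The contrast is nearly the difference of the DON and Gln-free effects that were in view when the genes were chosen, so it is given as a description with no p-value for them. The 9 culture libraries were put on 1 scale for it. Of the 10 genes, 7 passed the limma threshold as higher with DON than without Gln and 1 passed as lower, where 31% of 13514 genes were higher and 32.3% lower, and nothing is read from the count. Ranges of the treated groups stood apart for 8 of the 10 genes and for 71.7% of all genes tested. The gene that went the other way was Elovl6.

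With DON, Elovl6 had 380.9, 214.8 and 405.2 normalized counts on the common scale, and without Gln it had 1308.9, 1268.6 and 1270.1. Every DON library was below every Gln-free library, and the log2 difference was -1.99 (SE 0.193). Acss2 differed most in the other direction, with 158.2, 86.47 and 132.0 against 44.37, 54.34 and 39.50 normalized counts and a log2 difference of 1.40 (SE 0.211). Fads2 was higher with DON by 1.07 (SE 0.123), Scd2 by 0.97 (SE 0.137) and Fads1 by 0.85 (SE 0.0925). Fasn was higher with DON by 0.71 (SE 0.0989), Srebf1 by 0.55 (SE 0.0928) and Acly by 0.34 (SE 0.0867).

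Acaca and Scd1 did not pass. Acaca had a log2 difference of 0.11, with a 95% interval of -0.06 to 0.27, and Scd1 one of 0.11, with an interval of -0.09 to 0.31. Under quantile normalization both passed as higher with DON, at 0.19 and 0.25.

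**Figure D3:**
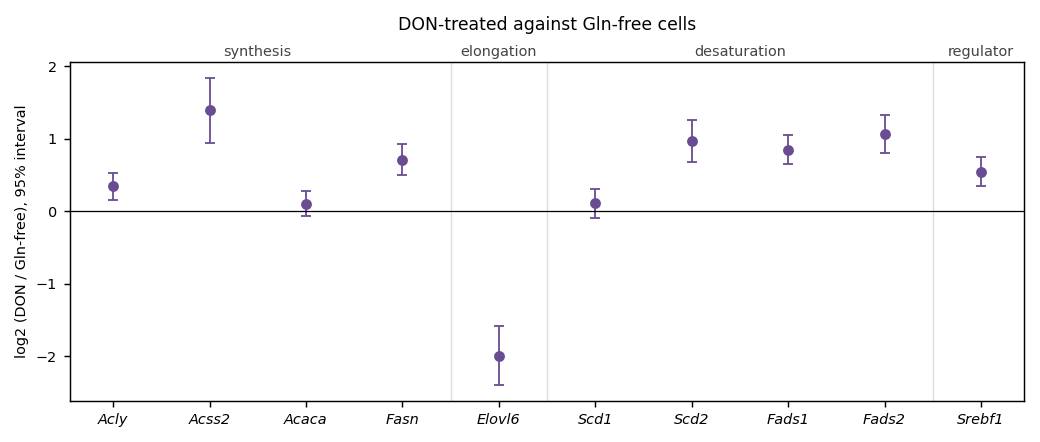
Log2 ratio of DON-treated to Gln-free cells with its 95% interval for each gene (3 libraries per group, spread estimated over 9 culture libraries). Elovl6 sits at -1.99, while the other 9 genes sit between 0.11 and 1.40.

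Across the 9 culture libraries the standardized log2 levels of the 10 genes ran closely together except for Elovl6. Each of the other 9 genes had another member at a Pearson r of 0.967 or more, and the closest member to Elovl6 was Scd1 at r = 0.764. The genes outside the group closest to its mean profile, of 10431 with a mean of at least 100, were Lipa (r = 0.999), which encodes lysosomal acid lipase, Mical2 (0.999), Pam (0.998), Aacs (0.997), which activates acetoacetate for lipid synthesis, and Jak3 (0.997). The 9 libraries fall into 3 groups of 3, so these values mostly follow the group means.

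Other genes of the pathway were taken from lists that were drawn up with earlier results of these data known. Their counts are therefore a description. In reading the counts that follow, 33.3% of all genes rose and 34.7% fell with DON, and 34.5% rose and 34.9% fell without Gln. The list drawn up around acetyl-CoA and malonyl-CoA also holds NADPH sources, carriers and an enzyme that breaks malonyl-CoA down. Its counts are therefore not counts of supply enzymes alone. Of its 13 tested genes, 8 fell and 2 rose with DON and 6 fell and 3 rose without Gln. Slc25a1, the carrier that exports citrate from mitochondria, fell by 1.66 with DON (SE 0.123, adjusted p = 3.53e-08) and by 2.78 without Gln (limma, log2 scale). Me1, the malic enzyme that makes NADPH, fell by 1.64 with DON and 0.98 without Gln, and Idh1, another NADPH source, by 2.33 and 3.62. Acat2, the cytosolic acetoacetyl-CoA thiolase, fell by 1.95 with DON and by 3.85 without Gln. Mpc2, of the mitochondrial pyruvate carrier, rose by 0.73 with DON and 0.64 without Gln. Mlycd, which breaks down malonyl-CoA, rose by 1.09 without Gln, and its difference of -0.03 with DON did not pass. For Mlycd the direct contrast of DON with Gln-free cells was -1.09 (limma adjusted p = 6.97e-06). Acacb was under the filter in culture.

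Among 9 tested genes of the elongation cycle, 6 fell and 1 rose with DON, and 5 fell and 2 rose without Gln. Tecr, the last reductase of the cycle, fell by 0.89 with DON and by 2.84 without Gln, and was 1.98 higher with DON than without Gln (limma adjusted p = 1.60e-09). Elovl7, another elongase, was like Elovl6 lower with DON than without Gln, by -1.22 (limma adjusted p = 3.63e-08), and Elovl5 was higher by 0.39 (adjusted p = 0.000161). Of these, Elovl7 fell by 0.87 with DON and rose by 0.38 without Gln, while Elovl5 fell by 0.41 without Gln and had a difference of -0.05 with DON that did not pass. Elovl1 fell by 0.51 with DON and by 0.61 without Gln. Hacd3, a dehydratase of the cycle, rose by 0.43 with DON, and Hacd2, of the same family, rose by 0.41 without Gln. Hacd4 had the largest fall in the list in either condition, from a mean of 21.3 normalized counts in the control cells to 2.48 with DON.

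The electron donors and other desaturases were mixed. With DON 5 of 10 tested genes fell and 2 rose, and without Gln 5 of 8 fell and 1 rose. Cyb5a, the cytochrome b5 that passes electrons to desaturases, fell by 1.07 with DON and 1.37 without Gln, and Cyb5r3, its reductase, by 1.04 and 1.28. Cyb5r1, a related reductase, rose by 2.01 with DON (SE 0.0903, adjusted p = 2.67e-10) and by 1.71 without Gln (limma). Among 8 tested genes of fatty acid activation, 5 fell and 1 rose with DON, and 6 fell and 1 rose without Gln. Acsl3 fell by 2.60 with DON and by 2.16 without Gln. Acsl4, which prefers polyunsaturated chains, fell by 0.66 with DON and rose by 0.35 without Gln, a difference of -0.97 between the treatments (limma adjusted p = 4.87e-06). Acsm3 fell by 2.83 without Gln and Acsbg1 rose by 0.52 with DON.

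Genes that set SREBP activity did not all follow Srebf1. Of 8 tested, 4 rose and 3 fell with DON, and 3 rose and 4 fell without Gln. Insig1, itself a sterol-regulated gene whose product retains SREBP in the endoplasmic reticulum, fell by 1.66 with DON and by 2.35 without Gln, and Srebf2 fell by 0.77 and 0.81. Insig2 rose by 0.58 with DON and 0.35 without Gln, and Erlin1 by 1.29 and 1.42. Scap, the escort of SREBP, rose by 0.24 with DON (limma adjusted p = 0.0448) and fell by 1.36 without Gln, and the 2 treatments differed by 1.63 (limma adjusted p = 4.56e-09). Of 11 other lipogenic regulators tested, 4 fell and 2 rose with DON, and 4 fell and 1 rose without Gln. Among them Pparg fell by 1.27 with DON and 0.91 without Gln and Mid1ip1, an activator of acetyl-CoA carboxylase, by 1.23 and 0.51. Cebpa fell by 1.58 with DON, and its difference of -0.14 without Gln did not pass. Mlx, a partner of ChREBP, rose by 0.68 and 0.35. Mlxipl, which encodes ChREBP, was under the filter.

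The cholesterol branch, which shares its SREBP control with fatty acid synthesis, was the 1 pathway list in which each tested gene fell in both conditions. The list was chosen with earlier results of these data known, so its counts are a description only. All 23 of 23 tested genes fell with DON, with a median of -1.58, and all 23 fell without Gln, with a median of -2.11 (limma, adjusted p under 0.05, log2 scale). Fdps had the largest fall in both, by 2.27 with DON and 4.22 without Gln, but it has near-identical copies in the genome and its counts are uncertain. The smallest falls were those of Mvd with DON, by 0.54, and of Sc5d without Gln, by 0.42. In the direct contrast 13 of the 23 were higher with DON than without Gln and 1 was lower, where 31% and 32.3% of all genes were (limma, adjusted p under 0.05). Tm7sf2, a sterol reductase, had the largest such difference at 2.72.

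In tumors the question was whether DRP-104 altered the same genes in vivo, where dose, time and surroundings all differed from culture. None of the 10 genes passed, and 0 of 15454 genes passed (0%) by limma, with a smallest adjusted p of 0.816. At an unadjusted p under 0.05 there were 775 genes, and DESeq2 called 56, none of the 10 among them. The differences of the 10 genes ran from -0.35 for Acly to 0.40 for Acss2 on the log2 scale, with a median of -0.12. The tumor and vehicle ranges stood apart for 3 of the 10 genes, against 10.6% of all genes, and since this comparison was also among those used to choose the genes nothing is read from that count.

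The 3 genes with separate ranges were all of the synthesis step. Acly had 3445.4, 3960 and 3469.7 normalized counts in DRP-104 tumors and 4035, 4666.2 and 5193.1 in vehicle tumors, so each DRP-104 tumor was lower (log2 difference -0.35, 95% interval -0.69 to -0.01). Acaca had 676.9, 717.5 and 703.9 against 763.2, 818.2 and 873.1, also lower in each (-0.22, interval -0.55 to 0.10). Acss2 had 284.5, 248.0 and 292.2 against 237.7, 160.5 and 232.0, higher in each (0.40, interval -0.13 to 0.94), where in culture it was lower. Fasn, with 4474.2, 4498.7 and 4733.5 against 4636.4, 4400 and 5370.2, overlapped (-0.07, 95% interval -0.38 to 0.25).

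The elongase, the desaturases and the regulator overlapped between the tumor groups. Elovl6 had 751.8, 610.2 and 789.2 normalized counts in DRP-104 tumors and 959.8, 816.4 and 566.0 in vehicle tumors (-0.10, 95% interval -0.61 to 0.41). Scd1 had 1999.7, 1664.5 and 1406.9 against 2138.6, 2509.4 and 1479.5 (-0.25, interval -0.77 to 0.26), and Scd2 had 16224, 17002 and 11634 against 19338, 14855 and 16867 (-0.20, interval -0.67 to 0.27). Fads1 had 1164.5, 1280.4 and 2051 against 1765.9, 1487.1 and 1520.9 (-0.13, interval -0.64 to 0.38). Fads2 had 681.2, 806.3 and 1746.1 against 1244, 762.6 and 851.9 (0.08, interval -0.73 to 0.89). DRP-104 tumor 3 was the highest of the 6 tumors for both Fads1 and Fads2, and it was also the tumor with the most T cell marker counts, 1420.6 against 51.89 to 108.1 in the other 5. Of the 6 tumors it also had the highest summed PDAC epithelial markers, at 202950, and the lowest fibroblast and endothelial ones, at 19906 and 4391.3 normalized counts. Without it the Fads2 difference was -0.33 and that of Fads1 was -0.38. Srebf1 had 2623.1, 2928.8 and 2407.9 against 2810.6, 2844.2 and 2897.4 (-0.11, interval -0.41 to 0.19).

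Bulk tumors mix cell types, and fewer cells of a type and less RNA per cell cannot be told apart in them. The 11 fibroblast markers summed to 19906 to 34294 normalized counts in DRP-104 tumors and 40756 to 84955 in vehicle tumors, with none at 0. The 8 endothelial markers summed to 4391.3 to 6410.1 against 6562.9 to 7625.8, and the 10 macrophage markers to 6409 to 12939 against 9069.4 to 12382. The 10 markers of adipocytes, cells that also express this pathway, summed to 2461.8 to 2716.5 against 2556.8 to 3463.9. Lep was at 0 in both groups and Retn in DRP-104 tumors. In the control cells the adipocyte list summed to 5781.3 to 6504.1, with Fabp4 and Lep at 0 reads, so its sum is not specific to adipocytes. The endothelial and macrophage lists summed to 1145.6 to 1346.3 and 2083.1 to 2805.9 in the control cells. The 12 acinar markers were highest in vehicle tumor 3 at 2899.3 and in DRP-104 tumor 1 at 1060.8, and between 171.6 and 400.0 in the rest. The summed PDAC epithelial markers overlapped, at 148160 to 202950 against 136940 to 189140. The median log2 difference of the fibroblast markers was -1.09 by counts and 0.10 in the separate FPKM values described below. For the endothelial markers it was -0.46 and 0.17, and for the adipocyte ones -0.83 and -0.53. No gene of these lists passed by limma in either. The part of these markers in the tumor values was not tested.

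A separate FPKM table (fragments scaled by transcript length and depth) holds 3 DRP-104 and 3 vehicle tumor columns. Whether these are the same tumors as in the count table is not settled here, so it is not known to be independent of the values that chose the genes. Here too 0 of 14212 genes passed by limma (0%), with 1081 at an unadjusted p under 0.05, and none of the 10 passed. Fasn was the 1 gene of the 10 with separate ranges, against 19.3% of all genes. It had 66.0, 42.7 and 37.5 FPKM in the DRP-104 columns and 36.4, 30.4 and 31.6 in the vehicle columns. Each DRP-104 column was higher, and the log2 difference was 0.52 (SE 0.212), which did not pass.

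The other 9 genes overlapped between the FPKM columns, with log2 differences from -0.38 for Elovl6 to 0.11 for Srebf1. Acly had 59.6, 70.3 and 66.6 against 60.5, 59.7 and 62.1 FPKM, a difference of 0.10 where the count table gave -0.35. Acss2 had 2.32, 2.70 and 2.91 against 3.58, 3.61 and 2.39 FPKM, a difference of -0.19 where the count table gave 0.40. Acaca, at 0.08, also differed in sign from the count table, as did Fasn and Srebf1. The same-numbered columns of the tables did not vary together, and no other pairing of columns was examined.

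**Figure D4:**
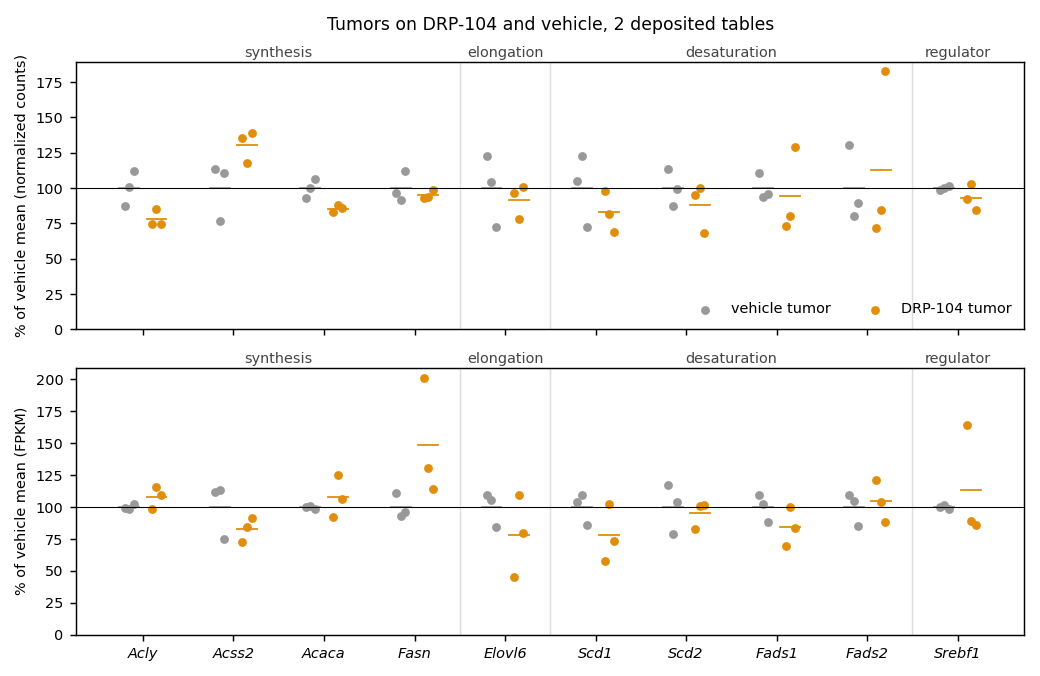
Each tumor as a percent of the vehicle mean of that gene, in the table of normalized counts (top) and in the FPKM table (bottom), with bars at group means (n = 3). Acly, Acaca and Acss2 stand apart in the upper panel and Fasn in the lower panel.

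The difference between the DRP-104 effect in tumors and the DON effect in cells was positive for all 10 genes, from 0.58 (SE 0.174) for Fasn to 3.30 (SE 0.409) for Fads2. All 10 passed as higher, where 19.1% of 15070 genes did, but the effects on either side of this contrast were among those that chose the genes and nothing is read from the count. Fasn no longer passed under quantile normalization, at 0.44, or without any 1 of DON library 1, DON library 2 and control library 2. By step the median was 0.75 for the synthesis genes and 1.89 for the desaturases, with 3.24 for Elovl6. In vehicle tumors the mean level per length was below that of control cells for all 10 genes, where the tables were normalized separately and the tumors also hold other cells. Fads2 was at 34.0 ± 10.4 reads per kb per M reads in vehicle tumors against 222 ± 15.8 in control cells, and Scd1 at 22.6 ± 5.71 against 144 ± 4.69 (SD, n = 3). Fads1 was at 24.7 ± 3.24 against 73.4 ± 6.52, Elovl6 at 7.04 ± 1.97 against 17.2 ± 4.70, Acaca at 4.60 ± 0.218 against 11.3 ± 0.281 and Acly at 55.9 ± 5.70 against 129 ± 3.65. Scd1 made up 9.0 to 16% of summed Scd1 and Scd2 in vehicle tumors and 9.94 to 12.2% in DRP-104 tumors, below every culture library.

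**Figure D5:**
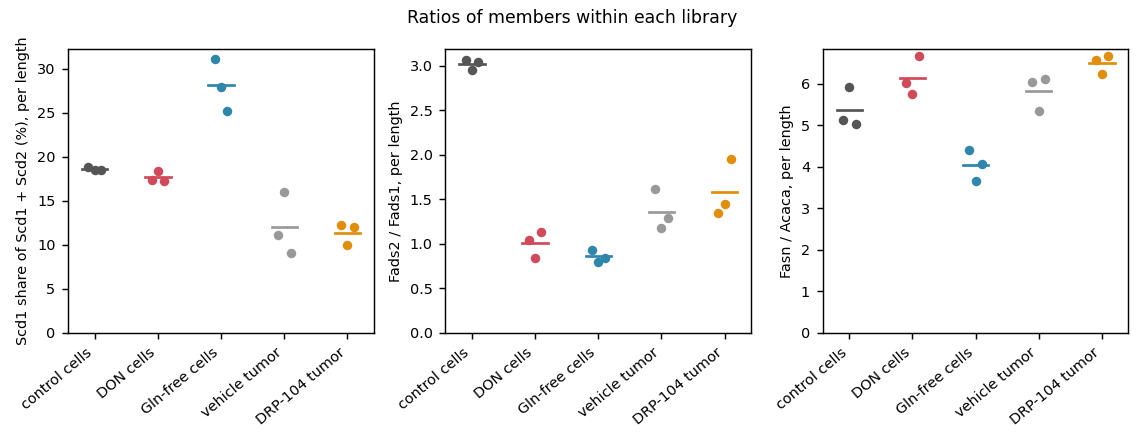
Per-length ratios within each of the 15 libraries, as the Scd1 share of Scd1 plus Scd2 in percent, Fads2 to Fads1 and Fasn to Acaca, with bars at group means (n = 3). The Scd1 share is 25.3 to 31.1% in Gln-free cells against 18.5 to 18.8% in control cells, and Fads2 to Fads1 is 2.95 to 3.07 in control cells against at most 1.13 in treated cells.

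Fasn to Acaca, the remaining ratio within libraries, was 5.04 to 5.91 in the control cells, 5.75 to 6.66 with DON and 3.65 to 4.41 without Gln. The Gln-free cultures lay below the other 2 groups, which overlapped. In tumors it was 5.34 to 6.10 with vehicle and 6.22 to 6.67 with DRP-104. None of the pathway lists above held a gene that passed in tumors in either table, and the median of the cholesterol genes there was -0.02 by counts and -0.05 by FPKM.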

How the data were processed

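Total RNA was extracted with TRIzol and PureLink, and libraries were made and sequenced by a commercial provider. Per the study's methods the authors aligned reads with HISAT2 and used DESeq2. The submitters' processing notes also name STAR 2.5, CASAVA and GRCm39, while the FPKM table's gene starts and ends matched GENCODE M21 (GRCm38) for 72.3% of 34490 gene IDs. The counting tool and strand setting are not given in the sources used here. In the 3 comparison tables the authors deposited a signal equal to reads over a size factor, 1 per library and table. Dividing it out gave whole reads for at least 99.99% of values within 0.0051 of a read. The controls of the culture tables carry a vehicle column name with the HY19 prefix. They were taken as the control cells, since no other group is compared there, and had equal reads in both tables for 55291 of 55291 genes. Even read numbers made up 69.6 to 72.7% of genes with 1 to 20 reads in cultures and 41.9 to 46.5% in tumors, which was not tested further. The FPKM values were deposited as computed by the authors, with 18.4 to 23.0 M reads behind each column. The tables also hold the authors' own fold changes and p-values, which were not used.

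The members and gene lists were chosen with earlier results of these data known. limma 3.58.1 (trend, R 4.3.3) was run on log2(value + 1) over genes with a mean of at least 10 (FPKM 0.5), two-sided, with Benjamini-Hochberg adjustment over all genes tested and a threshold of 0.05. For the direct contrast of the treated cultures, recovered reads of 9 libraries were put on 1 scale. Differences of low genes are understated on this scale. Named genes were the 10 members, a fixed set of genes from each list, and the lowest and highest called gene of each list. Some of these genes, and 1 allele of the line, are not reported here. Scripts were tested on simulated data. Alternatives were edgeR 4.0.16, DESeq2 1.42.0, other filters, pseudocounts of 0.5 and 10 (0.1 for FPKM), quantile normalization, a replicate block, and leaving out each library. Promoter windows are from RefSeq on GRCm38.p6.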

Additional observations from a re-analysis of the deposited data

Results flagged for a closer look

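All 10 genes were singled out because the effect of DRP-104 in tumors differed from that of DON in cells by a limma test of the difference itself. On the log2 scale, as the tumor effect minus the cell effect, the values were 0.58 for Fasn, 0.62 for Acaca, 0.88 for Acly and 3.07 for Acss2. They were 3.24 for Elovl6, 1.91 for Scd1, 1.87 for Scd2, 1.49 for Fads1, 3.30 for Fads2 and 1.03 for Srebf1. The genes had been chosen with both effects in view. Of 15070 genes tested, 19.1% passed as higher, and nothing is read from the count of these 10. Dose, time and surroundings differ between the settings and cannot be told apart from one another here.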

How the results depend on the processing

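For DON or Gln-free against control cells, 10 of 10 genes stayed lower and past the threshold under all 13 alternatives run. In the main fits 34.7% of all genes tested were called lower with DON and 34.9% without Gln. These comparisons were among those that chose the genes, so nothing is read from the count. Quantile normalization moved the median of all genes tested with DON from 0.02 to 0.13 and that of the effect difference between tumors and cells from -0.02 to -0.13, and it brought Fasn with DON to -0.45. In tumors DESeq2 called 56 genes, 29 of them lower, where limma and edgeR called 0 (edgeR had 863 at an unadjusted p under 0.05), and the cause was not tested. Leaving out 1 FPKM column at a time gave 0 to 1 genes called, the single call arising when either the first DRP-104 or the first vehicle column was left out. It turned the sign of 4 genes that had not passed, with ranges of -0.221 to 0.0658 for Scd2, -0.0517 to 0.168 for Fads2, -0.187 to 0.266 for Srebf1 and -0.0105 to 0.174 for Acaca. In the count table, leaving out 1 tumor gave -0.13 to 0.02 for Fasn, -0.38 to 0.03 for Fads1, -0.33 to 0.35 for Fads2 and -0.31 to 0.07 for Elovl6. For the difference between the tumor and cell effects, Fasn no longer passed under quantile normalization (0.44, limma adjusted p = 0.0647) or without DON library 1 or 2 or control library 2. Same-numbered tumors correlated at -0.457 to 0.0544 and same-numbered DON and Gln-free cultures at -0.0541 to 0.255. Differently numbered ones correlated at -0.448 to 0.579 and -0.275 to 0.273. No pairing by number was seen, but with 3 libraries per group the correlations cannot exclude one. With the number as a replicate block 0 genes were called in tumors, and 9237 between DON and Gln-free cells against 9207 without the block in the same 6 libraries. The planned block was not run where columns carry no mapped number (the control comparisons, the effect difference and FPKM). The precision of the tumor differences is that of 3 libraries per group, as the printed intervals give it.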

Other observations

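Lipid genes beyond synthesis also moved in culture. Their lists were likewise chosen with earlier results of these data known, so the counts are a description. Of 24 tested genes of fatty acid oxidation, 18 fell and 1 rose with DON, and of 23 tested, 17 fell and 3 rose without Gln (limma, adjusted p under 0.05). Cpt1a, which admits fatty acids to mitochondria, fell by 1.91 with DON and by 1.73 without Gln on the log2 scale. Acaa2, the thiolase that ends the cycle, had the largest fall in both, by 2.10 and 2.36. Etfa, an electron carrier, rose by 0.49 with DON, and Eci1, an enoyl-CoA isomerase, rose by 0.77 without Gln and fell by 0.38 with DON. In the direct contrast 15 of 24 were higher with DON than without Gln and 5 were lower, where 31% of all genes tested were higher and 32.3% lower.

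Of 21 genes of glycerolipid and phospholipid assembly, 10 fell and 4 rose with DON, and 10 fell and 7 rose without Gln. Dgat2, which makes triglyceride, fell by 2.22 and 2.10, and Lpin1, a phosphatidate phosphatase, fell by 1.18 with DON and had a log2 difference of -3.08 without Gln. Gpat3, an acyltransferase of the first step, rose by 1.04 and 2.21, while Gpam, of the same step, rose by 0.37 without Gln and had a difference of 0.15 with DON that did not pass. Chka, the first enzyme of phosphatidylcholine synthesis, rose by 1.31 without Gln and had a difference of 0.11 with DON that did not pass. The direct contrast of DON with Gln-free cells was -1.17 for Chka (limma adjusted p = 3.05e-09). Of 8 tested genes of uptake and lipid droplets, 5 fell and 2 rose with DON and 6 fell and 1 rose without Gln. Among them Vldlr, a lipoprotein receptor, rose by 1.24 and 1.32, Plin2 fell by 0.32 without Gln, and Fabp5 fell by 3.31 and 1.87 from a control mean of 41.0 normalized counts. The list of targets of the sterol sensor LXR includes Nr1h3, which encodes an LXR itself and is also counted among the lipogenic regulators. Lpcat3 in it is also counted under phospholipid assembly. Of its 4 tested genes, 2 rose and 1 fell with DON, and 1 rose and 3 fell without Gln. Apoe rose by 1.41 and 1.19, and Abca1, a cholesterol exporter, rose by 0.88 with DON and fell by 1.15 without Gln, with a difference between the treatments of 2.06 (limma adjusted p = 0.000127).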
